A study of Mus musculus with 6 samples.

Results

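The conjugating enzymes of ubiquitin and of its relatives, together with the Usp deubiquitinases, were followed in poly-A RNA of mouse retinal ganglion cells (RGCs), the neurons that send their axons into the optic nerve. Members were taken by gene name alone, every name made of Ube2 and a suffix or of Usp and a number. The rule used no measured value. It found 73 of the 10361 gene names in the table, 30 Ube2 names and 43 Usp names. Ube2cbp met the rule but is listed as Ube3d in GENCODE, a ligase named for binding a conjugating enzyme, and is counted with the Ube2 names.

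All mice were wild type, of the strain labelled C57/6NCrl. Adult control RGCs had been transduced with AAV2 that expresses a scramble shRNA mimic beside mCherry. In adult miR-1247 RGCs the AAV2 expressed a miR-1247-5p mimic, which supplies that microRNA. RGCs of embryonic day 18 (E18) were untreated, and each of the 3 groups has 2 libraries. Adult cells, about 5000 per condition out of 10 pooled retinas, were purified on Thy1 antibody and then sorted for mCherry, whereas the E18 cells, about 50000, were taken from the Thy1 antibody step without a sort. Between E18 and adult libraries the effects of age, vector, sort and cell number cannot be told apart. The adult age in weeks, and whether libraries of a group are from different animals, are not given in the sources used here. P-values therefore measure the spread between libraries, which may be technical.

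Ubiquitin is attached to proteins by a relay of enzymes. An activating enzyme (E1) charges ubiquitin, a conjugating enzyme (E2, the Ube2 genes) carries it, and a ligase (E3) directs it to a substrate, where the E2 often decides which kind of chain is built. A related relay attaches NEDD8. Deubiquitinases take ubiquitin off again, and the Usp enzymes are the largest family among them. In neurons the system turns over proteins of growing axons and of synapses, and it clears damaged mitochondria and lysosomes.

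Levels are given in FPKM, fragment numbers scaled by the length of the transcript and by how many fragments mapped in the library. A fold change is the difference between group means of log2(FPKM + 1), printed as log2 fold change ± standard error, and it understates changes of weakly expressed genes. Group values are means ± SD with n = 2 libraries. Of the members, 71 averaged at least 1 FPKM over all libraries and were tested in limma with all 9987 tested genes. A call means an adjusted p under 0.05 over all of them. Usp50 was listed at 0 in all 6 libraries. Usp51, a histone deubiquitinase, was at 0.321 and 1.25 FPKM in the control libraries, 1.72 and 1.29 in the miR-1247 libraries and 0.752 and 0.188 at E18, and was not tested.

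Correlations of log2 values across genes were 0.98 to 0.985 within a group and 0.96 to 0.962 between control and miR-1247 libraries. Between the embryonic and the adult libraries they were 0.692 to 0.701. RGC markers were present in every library: 14 of 15 had an entry, and their summed level was 3356 to 3409 FPKM in control, 2076 to 2105 in miR-1247 and 5580 to 5602 in E18 libraries. At E18 11 of the 14 rose, and Thy1 (855 to 352 FPKM), Slc17a6 (122 to 52.8) and Nefh (84.0 to 4.80) fell. Müller glia and astrocyte markers (5 of 8 with an entry) summed to 1063 to 1409 FPKM in control, 1713 to 1825 in miR-1247 and 167 in E18 libraries. Amacrine markers (2 of 7) summed to 112 to 113 FPKM in control, 138 to 151 in miR-1247 and 1.13 to 2.45 in E18 libraries. Rod and cone markers (2 of 8) summed to 44.6 to 46.1 FPKM in control, 24.3 to 26.9 in miR-1247 and 5.30 to 6.41 in E18 libraries. Bipolar markers (3 of 6) summed to 25.1 to 30.0 FPKM in control, 40.4 to 40.9 in miR-1247 and 11.3 to 12.7 in E18 libraries. No microglia or endothelial marker had an entry. Of 6 progenitor and cycling markers, 5 rose at E18, and Dapl1 among them was listed at 0 in all 4 adult libraries. The part of these cell types in the results was not tested. In bulk RNA, fewer cells of a type and less RNA per cell cannot be told apart.

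The first comparison asks how the ubiquitin enzymes of embryonic RGCs differ from those of the adult. At E18 28 members rose and 23 fell against adult control, so 71.8% of the tested members were called, beside 70.1% of all tested genes. Of the called members, 13 rose and 2 fell by at least 2-fold. Over all genes 40.2% rose and 29.8% fell, and 20.3% and 14.4% did so by at least 2-fold. The share of members that changed was therefore near the background, and the median member change of 0.10 lay beside a median of 0.16 over all genes. Under median ratio scaling the median over all genes was 0.02, so a rise of about 0.16 as deposited is no rise against the median gene. Among the Ube2 names 9 rose, 12 fell and 9 were not called. Among the Usp names 19 rose, 11 fell and 11 were not called. Counts for the small classes below are to be read beside the 40.2% and 29.8% of all genes. They were not tested and are no result about a class.

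**Figure D1:**
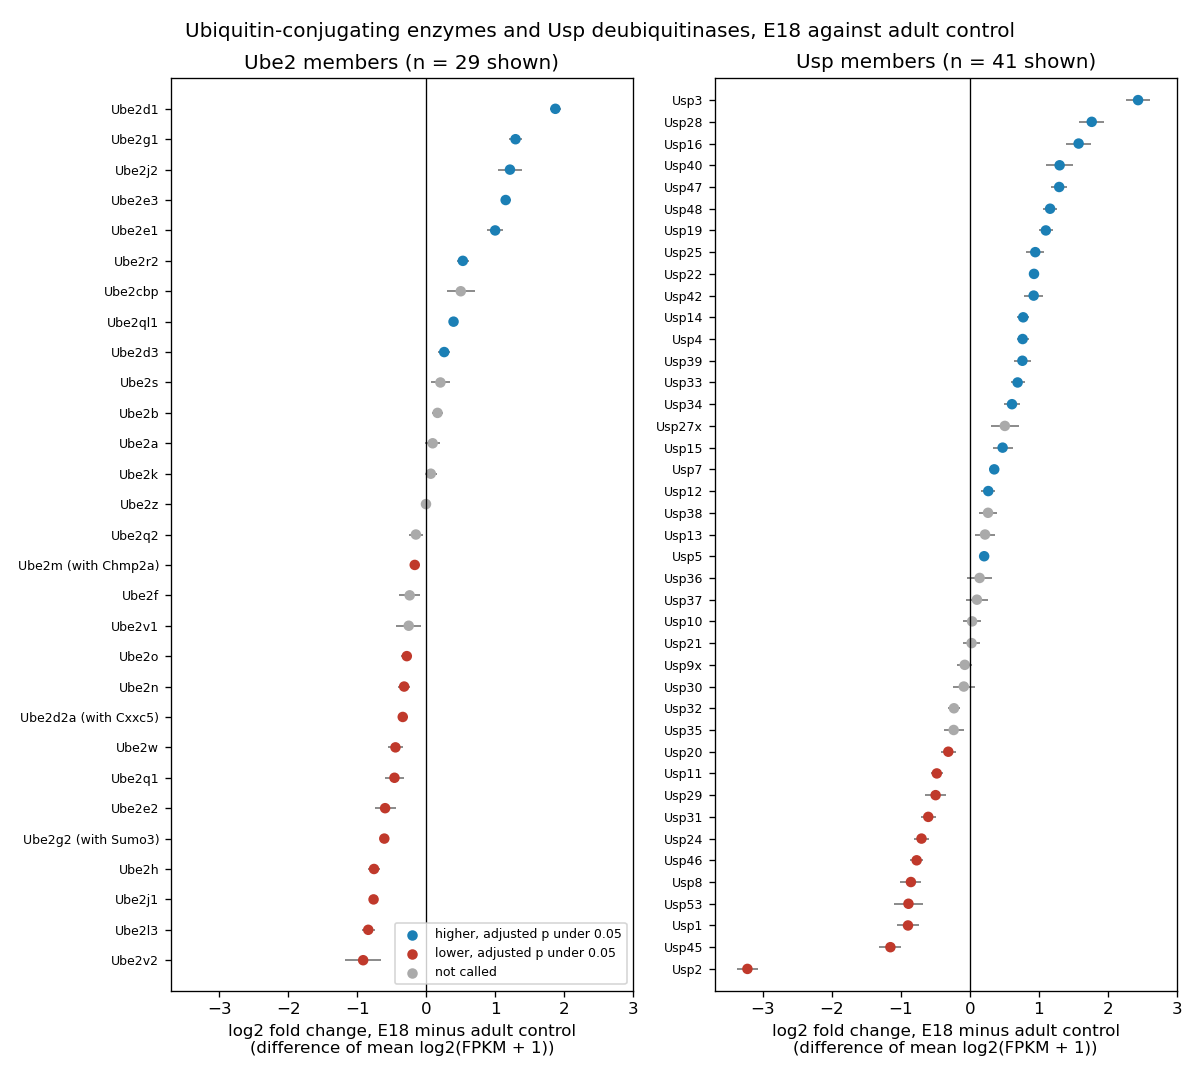
Log2 fold change of 70 of the 71 tested members between E18 and adult control (difference of mean log2(FPKM + 1), with standard errors as bars), Ube2 names on the left and Usp names on the right, coloured by call. Changes ran from −3.23 for Usp2 to 2.44 for Usp3.

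Summed over the family, the Ube2 names stood at 1526 and 1546 FPKM in the control libraries, 1473 and 1460 in the miR-1247 libraries and 1709 and 1690 at E18. The Usp names summed to 706 and 711 FPKM in control, 704 and 688 in miR-1247 and 921 and 935 in E18 libraries. Both sums were highest in the E18 libraries. The sums include the 3 Ube2 loci that also carry another gene name, and no test was made of them.

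The conjugating enzymes that work with many ligases, the Ube2d and Ube2e classes, showed 4 members up and 2 down at E18. Ube2d1 (chromosome 10, 71090809 to 71121127 in mm39), a general partner of RING and HECT ligases, stood at 36.1 and 41.1 FPKM in the control libraries, 33.9 and 33.1 in the miR-1247 libraries and 145 and 143 at E18. Both E18 libraries lay far above the 4 adult ones, and the group mean rose from 38.6 ± 3.56 to 144 ± 1.71 FPKM (log2 fold change 1.88 ± 0.0787, limma adjusted p = 3.05e-06). Its close relative Ube2d2a moved the other way, from 131 and 146 FPKM in control to 113 and 105 at E18. The E18 libraries were the lowest of the 6, and the change was −0.34 ± 0.0754 (adjusted p = 0.00637). The Ube2d2a entry shares its locus with Cxxc5, a separate gene, so its level is not that of Ube2d2a alone. Ube2d3, the remaining Ube2d gene with an entry, was at 88.0 and 82.8 FPKM in control and 97.3 and 108 at E18. Its change of 0.26 ± 0.0846 was close to that of the median gene, and its call was lost under median ratio scaling (0.11, adjusted p = 0.290). Without the first or second control library or the second E18 library its adjusted p reached 0.156.

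The Ube2d genes are similar enough that shared reads could blur them, so their coding sequences were compared. Over 444 aligned coding bases of the GENCODE canonical transcripts, Ube2d1 was 77.7% identical to Ube2d3 and 76.1% to Ube2d2a. The longest stretch that Ube2d1 shares exactly with either transcript is 14 bases, well under the 100-base reads. A stretch of 60 coding bases shows how the transcripts differ. The lines give it 5′ to 3′ in GRCm39 from the GENCODE vM39 transcripts, at chr10:71094038-71094097 on the minus strand for Ube2d1 and at chr3:135165775-135165834 on the plus strand for Ube2d3. Capitals mark the 14 bases that differ.
Ube2d1: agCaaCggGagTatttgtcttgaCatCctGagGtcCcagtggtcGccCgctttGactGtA
Ube2d3: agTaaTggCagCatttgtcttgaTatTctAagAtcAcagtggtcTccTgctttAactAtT
Differences are spread over the whole stretch, and every 100-base read that covers it holds several of them. No reads were examined, so the part of shared reads in the values was not tested. The stretch does not compare Ube2d1 with Ube2d2a. Ube2d2a and Ube2d3 share a longer run of 42 bases.

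The Ube2e enzymes, which carry an extended N terminus, also split. Ube2e3 was at 39.9 and 38.8 FPKM in control, 38.3 and 39.0 in miR-1247 and 93.5 and 84.3 in E18 libraries. The 4 adult libraries were alike and E18 stood apart, a rise of 1.15 ± 0.0748 (adjusted p = 1.94e-05). Ube2e1, whose locus coordinates also hold a locus of Nkiras1, rose from 37.3 ± 3.92 to 75.5 ± 3.51 FPKM (adjusted p = 0.000238). Ube2e2 was at 62.3 and 65.9 FPKM in control and 37.3 and 47.5 at E18, and fell by 0.59 on the log2 scale (adjusted p = 0.0112). Its call was lost without the second control library or the first E18 library (adjusted p up to 0.0786). Nearly all of its level came from 1 of its 2 loci, the other being under 0.1 FPKM in every library.

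Enzymes that build the lysine-48 chains read by the proteasome gave 2 risen members, 1 fallen and 1 not called. Ube2g1 was at 19.7 and 17.5 FPKM in control, 20.8 and 19.0 in miR-1247 and 47.1 and 47.0 in E18 libraries. Both E18 libraries were above all adult ones (1.30 ± 0.0969, adjusted p = 3.73e-05). Ube2g2, which serves degradation of proteins from the endoplasmic reticulum, was among the most abundant Ube2 entries in control, at 146 and 144 FPKM, with 154 and 153 in miR-1247 and 91.3 and 98.6 in E18 libraries. It fell by 0.61 (adjusted p = 0.000101), but its locus also carries Sumo3, and the values of the 2 genes cannot be told apart. Ube2r2, a partner of cullin ligases, rose from 27.4 ± 1.52 to 40.0 ± 0.321 FPKM (0.53 ± 0.0826, adjusted p = 0.0012). Ube2k stood at 54.3 ± 4.97 FPKM in control and 56.9 ± 3.65 at E18, with overlapping groups.

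The E2s anchored in the membrane of the endoplasmic reticulum moved in opposite directions. Ube2j2 was at 10.8 and 12.4 FPKM in control, 15.4 and 10.7 in miR-1247 and 27.1 and 29.3 in E18 libraries (1.22 ± 0.174, adjusted p = 0.000816). Ube2j1 was at 63.1 and 58.5 FPKM in control, 57.5 and 58.7 in miR-1247 and 34.7 and 36.2 in E18 libraries (−0.76 ± 0.0709, adjusted p = 0.000106). For both genes the E18 libraries lay outside the adult range, Ube2j2 above it and Ube2j1 below it.

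Of the E2s of NEDD8, 1 fell by a small amount. Ube2m, the main E2 of NEDD8, had a mean of 143 ± 4.25 FPKM in control and 128 ± 4.23 at E18. It fell by 0.16 (adjusted p = 0.0289), a call lost without the second control or second E18 library (adjusted p up to 0.12), and its locus also carries Chmp2a. The other NEDD8 E2, Ube2f, was at 12.2 ± 1.62 and 10.2 ± 1.65 FPKM, with overlapping groups and no call.

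Of the lysine-63 E2 and its partners 2 of 3 fell, and so did the E2 of the RBR ligases. Ube2l3, which hands ubiquitin to HECT and RBR ligases, was at 86.1 and 73.7 FPKM in control, 74.7 and 77.4 in miR-1247 and 46.6 and 41.7 in E18 libraries. The E18 libraries were lowest (−0.84 ± 0.0948, adjusted p = 0.000259), and a locus of Ydjc has the same coordinates. Ube2n, which builds lysine-63 chains of signalling and repair, fell from 43.2 ± 3.13 to 34.4 ± 0.041 FPKM (adjusted p = 0.012). Its catalytically inactive partner Ube2v2 was at 18.7 and 23.1 FPKM in control but 14.4 and 7.71 at E18, and the other partner, Ube2v1, at 67.9 ± 0.958 and 57.7 ± 14.5 FPKM was not called. The E18 libraries of Ube2v2 lay well apart from each other, though both below control, and its call (−0.91 ± 0.265, adjusted p = 0.0193) was lost without the second control or the second E18 library (adjusted p up to 0.102). The Ube2n call was lost without the second control library (adjusted p = 0.0626).

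Of the 7 less studied or atypical E2s, 1 rose and 4 fell. The one that rose, Ube2ql1 (chromosome 13, 69850950 to 69888089), has been linked in human cells to clearance of damaged lysosomes. It was at 82.8 and 88.6 FPKM in control, 59.7 and 62.2 in miR-1247 and 111 and 115 in E18 libraries, so its 3 groups did not overlap (E18 against control 0.40 ± 0.0621, adjusted p = 0.00124). Ube2h, the E2 of the CTLH ligase complex, was at 35.8 and 35.2 FPKM in control, 44.5 and 40.2 in miR-1247 and 20.8 and 20.5 in E18 libraries. Its E18 libraries were the lowest (−0.76 ± 0.0833, adjusted p = 0.000232). Ube2w, which modifies the N terminus of proteins, was at 19.3 and 20.9 FPKM in control, 26.4 and 28.8 in miR-1247 and 15.4 and 13.7 in E18 libraries. It fell at E18 by 0.44 (adjusted p = 0.00855), but without the second E18 library the adjusted p was 0.0503. The E2–ligase hybrid Ube2o and Ube2q1 fell by 0.28 and 0.46, Ube2o losing its call without the first control or second E18 library (adjusted p up to 0.0663) and Ube2q1 without the first control or either E18 library (up to 0.11). Ube2a and Ube2b, which ubiquitinate histone H2B, and Ube2s, which extends chains for the anaphase-promoting complex, were not called. The ligase Ube2cbp had a low level, at 2.20 and 1.58 FPKM in control, 0.806 and 0.807 in miR-1247 and 3.07 and 3.07 at E18, and was not called against control (adjusted p = 0.061).

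**Figure D2:**
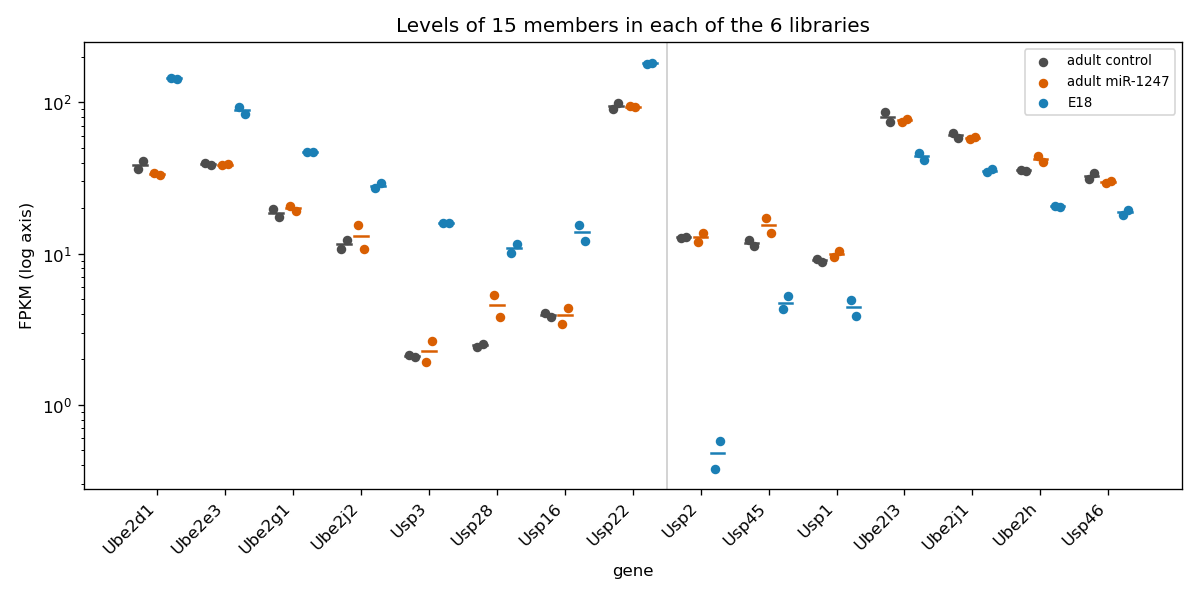
FPKM (log axis) of 15 members in each of the 6 libraries, with points for libraries and short lines for group means, genes higher at E18 left of the grey line and genes lower at E18 right of it. Adult control and miR-1247 points lie close together for most genes, while the E18 points stand apart, from 0.379 and 0.577 FPKM for Usp2 to 179 and 183 FPKM for Usp22.

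Nuclear and chromatin deubiquitinases held the highest rise of all members: of 8 tested, 4 rose and 1 fell. Usp3 (chromosome 9, 66257712 to 66500687), which removes ubiquitin from histone H2A, was at 2.14 and 2.07 FPKM in control, 1.93 and 2.64 in miR-1247 and 15.9 in both E18 libraries. The adult libraries overlapped and E18 was several times higher (2.44 ± 0.17, adjusted p = 2.71e-05). A locus of Herc1 has the same coordinates as that of Usp3. Usp16, another H2A deubiquitinase, was at 4.03 and 3.83 FPKM in control, 3.45 and 4.36 in miR-1247 and 15.4 and 12.2 in E18 libraries, and rose by 1.58 ± 0.177 (adjusted p = 0.00025). A locus of Cct8 has the same coordinates as that of Usp16. Usp22, the deubiquitinase of the SAGA coactivator, had the highest level of the Usp names. It stood at 90.2 and 98.7 FPKM in control, 94.7 and 92.5 in miR-1247 and 179 and 183 in E18 libraries (0.93 ± 0.0607, adjusted p = 2e-05), and its SAGA partners Atxn7l3 (49.5 to 68.2 FPKM) and Eny2 (21.7 to 31.1 FPKM) rose as well. Usp42 rose by 0.93 ± 0.142. Usp21, Usp27x and Usp36 were not called.

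Usp45, the nuclear member that fell, acts on the DNA repair factor ERCC1. It was at 12.3 and 11.2 FPKM in control, 17.1 and 13.7 in miR-1247 and 4.28 and 5.21 in E18 libraries. The E18 libraries were the lowest (−1.15 ± 0.16, adjusted p = 0.000699), and each of its 2 loci fell when tested separately, by 0.95 and 1.10.

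The deubiquitinases of endosomes, receptors and growth factor signalling gave 4 falls and 1 rise, beside 29.8% and 40.2% of all genes. Usp2 (chromosome 9, 43977623 to 44033257), whose expression follows the circadian clock in many tissues and which stabilises cyclin D1, had the lowest fold change of all members. It was at 12.6 and 12.9 FPKM in control, 12.0 and 13.7 in miR-1247 and 0.379 and 0.577 in E18 libraries. All adult libraries lay between 12.0 and 13.7 FPKM and E18 was below 1 FPKM (−3.23 ± 0.155, adjusted p = 5.4e-06), and a locus of Rnf26 has the same coordinates. Usp8, which acts with the ESCRT machinery on endosomes, was at 17.6 and 18.8 FPKM in control, 14.1 and 15.1 in miR-1247 and 8.28 and 11.2 at E18 (−0.85 ± 0.151, adjusted p = 0.00225). Usp33, which binds the Slit receptor Robo1 and takes part in axon guidance, rose from 27.0 ± 2.21 to 44.3 ± 2.95 FPKM (0.69 ± 0.101, adjusted p = 0.000908), whereas its relative Usp20 fell from 15.4 ± 0.291 to 12.2 ± 0.504 FPKM. Loci of Ak5 and Zzz3 have the same coordinates as that of Usp33. The Usp20 call was lost when any 1 control or E18 library was left out (adjusted p up to 0.122). Usp31 fell by 0.60, but its loci differed. One fell by 1.49 (adjusted p = 0.00318). The other was at 3.73 and 3.53 FPKM in control and 4.37 and 6.74 at E18, and was not called (0.48, adjusted p = 0.099). Against miR-1247 that second locus was called higher at E18 (0.89, adjusted p = 0.0121).

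Usp1, Usp12 and Usp46 share the activating cofactor Wdr48, which rose at E18 from 11.0 ± 1.04 to 27.6 ± 1.10 FPKM (1.26 ± 0.113, adjusted p = 8.94e-05). The enzymes did not follow it together. Usp1, which acts in repair of DNA crosslinks, fell from 9.05 ± 0.289 to 4.42 ± 0.774 FPKM (−0.90 ± 0.153, adjusted p = 0.00191). Usp46, which in the brain controls turnover of AMPA receptors, was at 31.1 and 34.3 FPKM in control, 29.3 and 30.3 in miR-1247 and 18.1 and 19.4 in E18 libraries. Its E18 libraries were the lowest (−0.77 ± 0.0914, adjusted p = 0.000325). Its closest relative Usp12 had 12.6 ± 0.227 FPKM in control and 15.3 ± 0.0492 at E18, a call (0.27 ± 0.099, adjusted p = 0.0468) lost when any 1 of the 6 libraries was left out (adjusted p up to 0.127) and under median ratio scaling (adjusted p = 0.309).

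The class of Usp4, Usp11 and Usp15, which act on TGF-beta receptors and SMAD proteins, also split. Usp4 was at 25.9 and 24.2 FPKM in control, 21.7 and 19.7 in miR-1247 and 42.5 and 44.0 in E18 libraries (0.77 ± 0.089, adjusted p = 0.000297). Usp11, an X-linked gene, was at 46.9 and 41.4 FPKM in control, 57.6 and 53.4 in miR-1247 and 30.6 and 32.0 in E18 libraries (−0.48 ± 0.089, adjusted p = 0.0028). In both genes the 3 groups were separate from each other, in opposite order. Usp15 rose from 13.5 ± 1.15 to 19.1 ± 0.763 FPKM, a call lost without the first control library or either E18 library (adjusted p up to 0.114) and under median ratio scaling. Usp25 and Usp28, a pair of related enzymes of which Usp28 stabilises Myc, both rose. Usp28 was at 2.41 and 2.54 FPKM in control, 5.31 and 3.83 in miR-1247 and 10.1 and 11.6 in E18 libraries (1.77 ± 0.185, adjusted p = 0.00018), with no overlap between groups.

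Of the large and X-linked enzymes 5 rose, 1 fell and Usp9x was not called. Usp47, which acts on the repair polymerase Pol beta, was at 19.9 and 18.1 FPKM in control, 26.7 and 21.9 in miR-1247 and 50.0 and 46.3 in E18 libraries (1.30 ± 0.116, adjusted p = 8.81e-05). Its main locus carried the rise, at 18.8 and 18.1 FPKM in control and 48.2 and 45.4 at E18. Usp48 rose from 10.9 ± 0.657 to 25.6 ± 0.282 FPKM (1.16 ± 0.105), Usp40 from 1.44 ± 0.215 to 5.06 ± 1.06 FPKM (1.30 ± 0.201), and Usp34, which stabilises axin in Wnt signalling, from 10.1 FPKM in both control libraries to 15.8 and 16.2 FPKM (0.61 ± 0.122). A locus of Ahsa2 has the same coordinates as that of Usp34. Usp7, which controls Mdm2 and p53, rose by 0.35 ± 0.0734 (adjusted p = 0.00461). Usp24, the large enzyme that fell, was at 18.1 and 17.9 FPKM in control, 11.5 and 11.8 in miR-1247 and 10.7 in both E18 libraries (−0.70 ± 0.103, adjusted p = 0.000916).

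Of the Usp enzymes tied to the proteasome and to free ubiquitin chains, 2 of 3 rose and none was called lower. Usp14, which sits on the proteasome, rose from 39.1 ± 2.84 to 67.6 ± 1.98 FPKM (0.77 ± 0.0856, adjusted p = 0.000234), and a locus of Thoc1 has the same coordinates. Usp5, which takes free chains apart, went from 55.0 ± 1.10 to 63.7 ± 1.63 FPKM. Its call (0.21 ± 0.0652, adjusted p = 0.026) was lost when any 1 control or E18 library was left out (adjusted p up to 0.0942) and under median ratio scaling (0.05, adjusted p = 0.490), and the abundant genes Eno2 and Tpi1 have loci at its coordinates. Usp13, its relative, was not called. Usp19, anchored in the endoplasmic reticulum, rose from 13.7 ± 0.0418 to 30.6 ± 1.61 FPKM (1.10 ± 0.104), and Usp39, a spliceosome protein, from 10.5 ± 0.0145 to 18.6 ± 2.08 FPKM (0.76 ± 0.119). Usp30, which restrains the removal of mitochondria, was at 8.06 ± 0.785 and 7.53 ± 0.765 FPKM, with overlapping groups. Usp53 fell from 4.20 ± 0.469 to 1.80 ± 0.239 FPKM (−0.89 ± 0.21, adjusted p = 0.00821). Of 6 other tested Usp genes only Usp29 was called, a fall of 0.50 lost without either control library or the first E18 library (adjusted p up to 0.139).

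Because several relatives moved in opposite directions, their ratio was taken within each library, where any scaling of the library cancels. These pairs were chosen after the values were seen, with the gene that rose at E18 as the numerator. They are given without a test, and pairs that moved together, such as Usp25 and Usp28, are not among them. With 2 libraries against 2 the smallest exact two-sided permutation p is 0.333. Ube2d1 over Ube2d2a was 0.275 and 0.281 in control, 0.247 and 0.260 in miR-1247 and 1.28 and 1.35 in E18 libraries. Ube2d1 was thus the lesser of the pair in all 4 adult libraries and the greater in both E18 libraries, with the Cxxc5 locus included in the Ube2d2a value. Ube2e3 over Ube2e2 likewise went from 0.640 and 0.589 in control to 2.51 and 1.78 at E18, with 0.847 and 0.671 in miR-1247. Usp4 over Usp11 went from 0.551 and 0.586 to 1.39 and 1.37, with 0.377 and 0.370 in miR-1247. The order of these pairs changed as well. Usp16 over Usp45, which are more distant relatives, was 0.329 and 0.341 in control, 0.201 and 0.319 in miR-1247 and 3.60 and 2.34 at E18. The Usp16 values carry the limit of the Cct8 locus named above.

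For other pairs the ratio moved without a change of order. Ube2g1 over Ube2g2 went from 0.135 and 0.122 in control to 0.516 and 0.477 at E18, and Ube2j2 over Ube2j1 from 0.171 and 0.211 to 0.782 and 0.808. Usp12 over Usp46 went from 0.409 and 0.362 to 0.851 and 0.788. In each of these the E18 ratios were above all adult ratios and below 1. The summed level of the Ube2d class was 255 and 270 FPKM in control and 356 and 357 at E18, and that of the Ube2g class 166 and 161 FPKM in control and 138 and 146 at E18. The Usp12 and Usp46 sum was 43.9 and 46.7 FPKM in control and 33.4 and 34.7 at E18. Identity of the coding sequences within these pairs ran from 64.2% for Ube2g1 and Ube2g2 to 77.9% for Usp12 and Usp46, and the longest exact run shared within a pair was 27 bases.

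**Figure D3:**
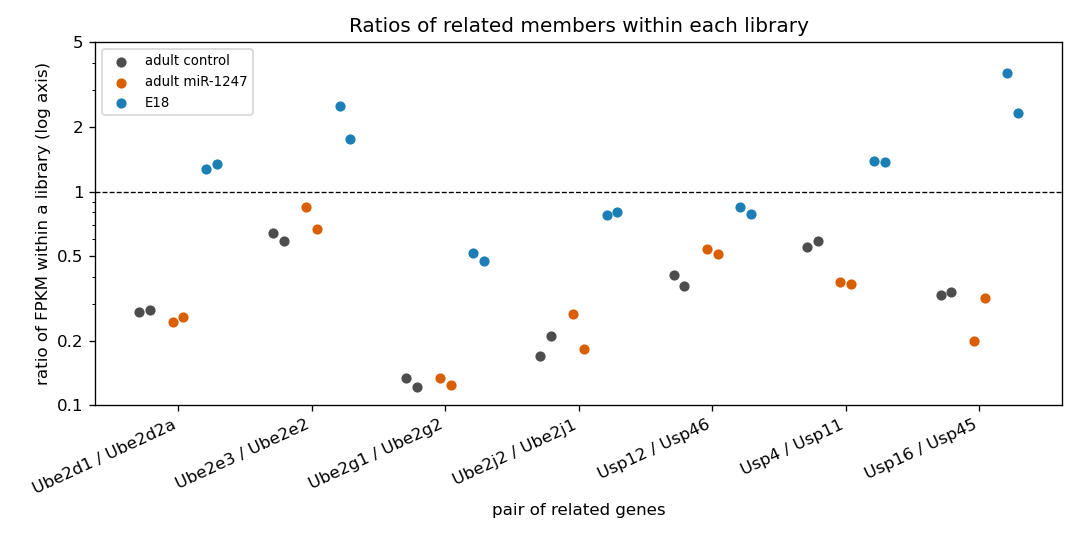
Ratio of FPKM values of related members within each library (log axis), 7 pairs, 1 point for each library. In all 7 pairs both E18 ratios lie above the 4 adult ratios, which follows from putting the gene that rose at E18 on top. In Ube2d1/Ube2d2a, Ube2e3/Ube2e2, Usp4/Usp11 and Usp16/Usp45 the ratios cross from below to above 1.

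Other genes of the ubiquitin system, taken from lists by function, changed to a similar extent. Of 159 tested, 67 rose and 43 fell at E18, 69.2% beside the 70.1% of all genes. They include Sumo3, whose locus is that of Ube2g2 and is thus counted among the members as well. Uba1, the E1 that charges most of the conjugating enzymes, was at 98.5 and 96.6 FPKM in control, 77.4 and 74.8 in miR-1247 and 221 and 224 in E18 libraries. Its 3 groups were separate, with E18 highest and miR-1247 lowest (E18 against control 1.18 ± 0.0502, adjusted p = 3.14e-06). Of the genes that encode ubiquitin itself, Ubb fell from 714 ± 30.6 to 361 ± 6.76 FPKM (−0.98 ± 0.0414), while Rps27a, which fuses ubiquitin to a ribosomal protein, rose by 2.94 ± 0.368. Among deubiquitinases of other families, Uchl1, an abundant neuronal enzyme, rose from 508 to 868 FPKM (0.77 ± 0.0427). Uchl3 rose by 1.28 and Uchl5, a proteasome enzyme, fell by 1.01. Otud7b (−1.21) and Cyld (−0.98) had the lowest changes of the OTU and of the remaining lists, and Otud3 (0.51) and Pan2 (1.39) the highest. Pan2 is on the remaining list but has no known deubiquitinase activity, and the next highest on it was Mindy1 (1.07). Of 85 ligases 38 rose and 22 fell, with the highest change in Rnf2, a ligase for histone H2A, at 1.78 ± 0.139. In the other lists the extremes were Mocs3 (−0.92) for the E1s, Fau (1.89) and Ubl3 (−2.45) for ubiquitin-like modifiers, Tsg101 (0.81) and Atg10 (−1.67) for E2s and E2-like proteins under other names, and Dmwd (−0.23) for deubiquitinase cofactors.

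The next comparison asks what the miR-1247-5p vector changed in adult RGCs. Of the 71 tested members none rose and 2 fell, Ube2ql1 and Usp24, which is 2.82% beside 9.75% of all tested genes (3.53% higher and 6.22% lower). Neither fell by 2-fold or more, as 0.761% of all genes did, while 0.441% rose by as much. At an unadjusted p under 0.05 the limma fit counted 20 of the 71 members, beside 2853 of 9987 genes (28.6%). The median member change was −0.02, beside −0.03 over all genes. Ube2ql1 was at 82.8 and 88.6 FPKM in control and 59.7 and 62.2 with miR-1247, and fell from 85.7 ± 4.06 to 60.9 ± 1.79 FPKM (−0.48 ± 0.0621, adjusted p = 0.0114). Usp24 (chromosome 4, 106171837 to 106298721), a large deubiquitinase, was at 18.1 and 17.9 FPKM in control and 11.5 and 11.8 with miR-1247, and fell from 18.0 ± 0.152 to 11.7 ± 0.20 FPKM (−0.59 ± 0.103, adjusted p = 0.0232). For both genes the 2 groups did not overlap, which also held for uncalled members such as Ube2a, Ube2b and Ube2z. With 2 libraries in each group, a lack of overlap adds no support to a call, here or above. The calls rest on few libraries: that of Usp24 was lost when any 1 of the 6 was left out (adjusted p 0.0589 to 0.102), and that of Ube2ql1 without the second control library (adjusted p = 0.059) or the first or second miR-1247 library (0.0708 and 0.057). Under equal totals and median ratio scaling both stayed called (adjusted p at most 0.0272).

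**Figure D4:**
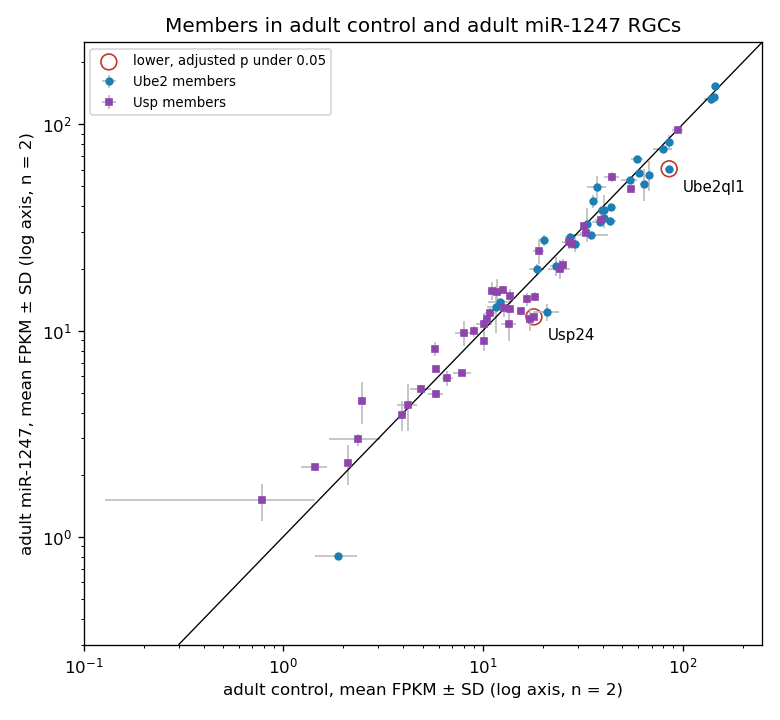
Mean FPKM ± SD (n = 2 libraries, log axes) of the 72 members with a value above 0 in adult control (x) and adult miR-1247 RGCs (y), with the line of equal levels. Most members lie close to the line, and the circled genes, Ube2ql1 and Usp24, were the ones called, both lower with miR-1247.

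Several members fell just short of a call between these groups, in both directions, and the following are examples. Ube2n was at 40.9 and 45.4 FPKM in control and 35.0 and 33.2 with miR-1247 (−0.33 ± 0.0822, adjusted p = 0.0539). Usp29 was at 16.5 and 17.9 against 12.4 and 10.4 FPKM (−0.56 ± 0.155, adjusted p = 0.0692). Usp28 was at 2.41 and 2.54 FPKM in control and 5.31 and 3.83 with miR-1247 (0.67 ± 0.185, adjusted p = 0.0696), and Usp11 at 46.9 and 41.4 against 57.6 and 53.4 FPKM (0.33 ± 0.089, adjusted p = 0.0683). Ube2w, at 19.3 and 20.9 against 26.4 and 28.8 FPKM, had an adjusted p of 0.0519. Under median ratio scaling Ube2w was called higher (0.47, adjusted p = 0.0432), so that the split became 1 member higher and 2 lower. The minor locus of Usp47 was at 1.07 and 0.0522 FPKM in control, 5.83 and 4.33 with miR-1247 and 1.79 and 0.873 at E18. Tested as a separate locus it was called higher with miR-1247 (2.03, adjusted p = 0.0341), whereas the sum of both loci was not (0.33 ± 0.116, adjusted p = 0.12). In the wider ubiquitin system 7 of 159 genes rose and 5 fell, a called share no higher than that of all genes. Over all tested genes 9.75% were called in this comparison, 3.53% higher and 6.22% lower. Uba1 fell from 97.6 ± 1.33 to 76.1 ± 1.89 FPKM (−0.35, adjusted p = 0.0141) and Wdr48 rose from 11.0 ± 1.04 to 16.3 FPKM (0.53, adjusted p = 0.0378). In the same libraries all 14 RGC markers fell, and so did 1 of 2 rod and cone markers, Rom1 (29.5 to 14.5 FPKM, adjusted p = 0.0272). The summed levels of amacrine, bipolar and glial markers were higher with miR-1247, as given above. Their part in these differences was not tested.

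A microRNA pairs through its seed, bases 2 to 8, mostly with sites in 3′ untranslated regions (UTRs). The mature miR-1247-5p is shown because it is the molecule introduced by the vector, with the seed in capitals, as RefSeq gives it at chr12:110278094-110278115 on the minus strand of GRCm38.p6.
miR-1247-5p: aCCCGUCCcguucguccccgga
The exact complement of the seed, GGACGGG, was searched on the transcript strand in the 3′ UTRs of GENCODE canonical transcripts. It was present in 1 of 70 members with such a transcript (1.43%) and in 320 of 9858 tested gene names (3.25%). The member is Usp48, and its site lies at chr4:137384317-137384338 on the plus strand of GRCm39, shown 5′ to 3′ with the seed match in capitals.
Usp48: ttttaggggagcacGGACGGGg
Usp48 was at 11.3 and 10.4 FPKM in control and 12.6 and 11.8 with miR-1247, and the change of 0.15 ± 0.105 was not called (adjusted p = 0.392). In coding sequence the motif occurred in Ube2o and Usp19, 2.86% of members beside 7.70% of all names, and neither gene was called. The motif was not found in the 3′ UTR or coding sequence of the canonical transcripts of Ube2ql1 and Usp24. A match is a string of letters and no proof of a site, and no match says only that these letters are not in these windows.

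The last comparison sets E18 against adult miR-1247 RGCs and shares its E18 libraries with the first. In it 30 members rose and 17 fell, 66.2% beside 69.9% of all tested genes (41.5% higher and 28.4% lower). Of these, 12 rose and 4 fell by at least 2-fold on the log2(FPKM + 1) scale, beside 21.1% and 14.1% of all genes. Under median ratio scaling the split was 26 higher and 23 lower, and Usp7 lost its call (adjusted p = 0.0767). Some calls depended on single libraries and were lost when one was left out. Among the rises these were Ube2d3, Ube2s and Usp13, and among the falls Ube2d2a, Ube2f, Ube2q1, Usp21 and Usp8. Usp3 (2.37 ± 0.17) and Ube2d1 (2.07 ± 0.0787) had the highest changes, and Usp2 (−3.23 ± 0.155), Usp45 (−1.51 ± 0.16) and Usp1 (−1.02 ± 0.153) the lowest. Usp24 was low in both groups, 11.7 ± 0.20 and 10.7 ± 0.0306 FPKM, and was not called (−0.11 ± 0.103, adjusted p = 0.352). Ube2ql1, high at E18 and low with miR-1247, was at 60.9 ± 1.79 FPKM with miR-1247 and 113 ± 2.57 FPKM at E18 (0.88 ± 0.0621, adjusted p = 2.84e-05). Usp12, at 15.7 ± 0.188 and 15.3 ± 0.0492 FPKM, was not called either. Ube2cbp rose by 1.17 ± 0.202 (adjusted p = 0.00197) from 0.807 to 3.07 FPKM, a level at which the added 1 FPKM of the log scale weighs on the fold change.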

How the data were processed

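Poly-A RNA of 6 mouse RGC libraries was analysed from a deposited table. Per the submitters' processing notes, HISAT2 mapped the reads to mm39, and Cufflinks and Cuffdiff quantified them, with versions not given in the sources used here. The authors deposited FPKM values, 1 column for each library, with 1e-05 added to each, which was taken off. The log2 ratios of group means that the authors deposited lay within 0.00206 of recomputed ones and served only as this check. The table holds no read counts, so sequencing depth is unknown. Listed FPKM totals ran from 339224 to 392238.

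Loci of one name were summed, and names with the same loci were tested as 1 gene. Genes with a mean of at least 1 FPKM were tested on log2(FPKM + 1) with all 6 libraries in limma 3.58.1 (R 4.3.3, variance trend, 3 group means). P-values were two-sided, Benjamini-Hochberg adjusted and called at 0.05. The step was tested on simulated data. Alternatives were another pseudocount and filter, scaling, single loci, no variance trend, separate fits, a replicate block and leaving out each library. Replicate numbers did not pair libraries: deviations of same-numbered libraries correlated at −0.008 to 0.004. Members and gene lists were chosen with earlier results of these data known. The rule for named genes took the 10 highest and 10 lowest calls of each comparison, the 5 highest levels of each family, and members at 0 or with several loci, and other members are named with their functional class. Python 3.11.15, pandas 2.3.3, NumPy 2.4.6, Biopython 1.88 and Matplotlib 3.10.9 were used. The named library kit does not mark strand, so overlapping genes on opposite strands may share reads. A few genes are counted but not reported by name.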

Additional observations from a re-analysis of the deposited data

How the results depend on the processing

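Over the 15 alternatives no called member changed direction, where for single loci only the locus with the highest level of a name was followed. Smaller loci did differ. Against adult miR-1247 the smaller locus of Usp47 was called lower at E18 (−1.40, adjusted p = 0.0183) and that of Usp31 higher (0.89, adjusted p = 0.0121). Both went against the call of the summed loci. Against adult control, E18 gave 24 to 29 higher and 17 to 25 lower members, with 24 and 25 under median ratio scaling and 24 and 24 under equal totals. Against adult miR-1247 it gave 26 to 32 higher and 14 to 23 lower. Called under every alternative that tested them were 24 of 28 rises (not Ube2d3, Usp5, Usp12 and Usp15) and 14 of 23 falls (not Ube2e2, Ube2m, Ube2n, Ube2o, Ube2q1, Ube2v2, Ube2w, Usp20 and Usp29). Of the members called throughout, Usp40 and Usp53 were not tested with a mean of at least 5 FPKM. Usp31 and Usp47 were judged by their larger locus when loci were not summed. Their smaller loci were not called against control (0.48, adjusted p = 0.099, and 0.63, adjusted p = 0.19). For miR-1247 against control, the count of higher members was 0 and became 1 with a mean of at least 5 FPKM, under median ratio scaling (Ube2w in both) and with loci not summed (Usp47). The count of lower members was 2 and became 1 with no variance trend (Ube2ql1 lost), and 0 to 1 when leaving out each library: 1 without the first control library or either E18 library, 0 without the second control library or either miR-1247 library. The cause was not tested. Fitting only the groups compared gave 3, Ube2v2 added (adjusted p = 0.0463).

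With the replicate block, E18 against control gave 27 higher and 23 lower members, E18 against miR-1247 29 and 17, and miR-1247 against control 0 and 2. The shared numbers did not pair the libraries, since same-numbered deviations correlated at −0.008, −0.002 and 0.004.

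With 2 libraries in a group and unknown depth, small changes cannot be told from library spread, and levels near 1 FPKM have no counting interval. Loci of other genes lie at the coordinates of 13 members, and 3 members share their locus with another name. The 13 are Ube2e1, Ube2k, Ube2l3, Usp2, Usp3, Usp5, Usp14, Usp16, Usp21, Usp30, Usp33, Usp34 and Usp37.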
